A study of Oryza sativa with 4 samples.

Results

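The genes described here are 10 members of the photosystem II antenna and of PsbS, out of 37858 genes listed. They were chosen by their identifiers in the Rice Annotation Project. Earlier results of these data were known when these 10 genes were chosen. They are the Lhcb1 type genes Os01g0600900, Os09g0346500 and Os01g0720500, Lhcb2 (Os03g0592500), Lhcb3 (Os07g0562700), Lhcb4 (Os07g0558400), Lhcb5 (Os11g0242800), Lhcb6 (Os04g0457000), PsbS1 (Os01g0869800) and PsbS2 (Os04g0690800). RNA was sequenced from fully developed leaves of rice cultivar Nipponbare at 55 d after sowing, with 2 biological replicates per treatment, each a single plant. CS plants grew from control seeds that had matured at 25 °C, and HDS plants grew from seeds that had matured at 30 °C. Both kinds of plant grew under natural conditions and were not themselves treated with heat. The comparison of HDS with CS plants therefore asks which leaf transcripts differed after a different temperature during grain filling of the parent plant.

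In green plants, most light for photosystem II is captured by chlorophyll-binding proteins around its core. The Lhcb1, Lhcb2 and Lhcb3 proteins form the trimers of the major antenna, whereas Lhcb4, Lhcb5 and Lhcb6 are the monomeric minor antenna proteins that link the trimers to the core. PsbS belongs to the same protein family but is not a light-harvesting protein. It senses acidification of the thylakoid lumen and switches on the rapid, energy-dependent part of nonphotochemical quenching, by which excess light energy is released as heat. Antenna genes are encoded in the nucleus, are expressed in green tissue and are known for their response to light and for their daily rhythm.

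The libraries held between 15444235 and 17298384 expected counts. The CS libraries differed from each other more than the HDS libraries did, and CS replicate 1 stood apart. Its 10 most abundant genes held 8.51% of its counts, against 6.18% to 6.65% in the other libraries. Levels are given below as counts per 1000000 counts of the library (CPM), scaled by TMM, a method of edgeR that corrects for differences in library composition. Of the 10 members, 8 had a higher level in CS replicate 1 than in the other CS library. On the log2 scale, CS replicate 1 minus CS replicate 2 lay between -0.18 and 1.68 for the members, whereas HDS replicate 1 minus HDS replicate 2 lay between -0.34 and 0.29. Fold changes of the members are therefore also given without CS replicate 1, or as the range over the omission of each library. When a library is omitted, its treatment is left with 1 library, which is assumed to vary like the other treatment, and the spread in the test comes from the other treatment alone. A test without a CS library thus takes its spread from the closely matching HDS libraries, and a test without an HDS library takes it from the more distant CS libraries. As a check of the labelled tissue, lists of identifiers for leaf, root, flower and shoot meristem were used, although no table used here annotates these identifiers. The 2 leaf identifiers together were at 9598 and 4830 CPM in CS leaves, against 3867 and 4078 CPM in HDS leaves. They went opposite ways, and most of the sum came from the one that was lower by the study's criteria, with a log2 fold change of -1.14 against 0.26 for the other, which did not pass. Of the root list, 2 of 3 had 0 counts in every library, as had 2 of 3 of the flower list and the only one of the meristem list, where 0 counts allow up to 3 counts per library. The root list summed to between 3.22 and 4.79 CPM per library and the flower list to between 2.46 and 3.80 CPM.

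All 8 antenna genes were lower in HDS plants than in CS plants, and neither PsbS gene passed the same test. With the criteria of the study, an unadjusted P under 0.05 in edgeR's exact test with a log2 fold change no smaller than 0.37 in size, 8 of the 10 members were lower and 0 were higher. Over all 29698 genes tested, 3.7% were lower and 4.18% were higher by these criteria. These were fewer genes than the paper reported by the same criteria. With P-values adjusted over all 29698 genes by the Benjamini-Hochberg method, 8 of 10 members remained lower in the exact test, against 1.11% of all genes. Both HDS libraries lay below both CS libraries for the same 8 genes, against 19.3% of the genes kept by the filter on low counts. The median log2 fold change was -1.13 for the 8 antenna genes and 0.01 for all genes tested. Without CS replicate 1 the antenna median was smaller, at -0.72, and without CS replicate 2 it was -1.39. By edgeR's quasi-likelihood test, which allows for uncertainty in the spread of each gene, 0 of 10 members had an adjusted P under 0.05, against 0.451% of all genes that were lower in this test. Of the members, 8 had an unadjusted quasi-likelihood P under 0.05 and were lower, against 4.56% of all genes in this test. DESeq2 gave 7 of them an adjusted P under 0.05, against 1.14% of genes that were lower by DESeq2, and the exception was Os01g0600900 (DESeq2, adjusted P = 0.350). These adjusted calls depended on which library was omitted. The number of members past the adjusted quasi-likelihood test was 7 without CS replicate 1, 9 without CS replicate 2 and 0 when either HDS library was omitted. Over all genes, the same test called 614 and 2681 without the CS libraries in this order, and 3 and 36 without HDS replicates 1 and 2. In the exact test with adjusted P-values, far fewer antenna genes passed without an HDS library than without a CS library. The share of all genes that passed in these tests was not computed. The antenna log2 fold changes lay between -1.73 and -0.67 without CS replicate 1 and between -3.43 and -0.65 without CS replicate 2. They lay between -2.68 and -0.72 without HDS replicate 1 and between -2.93 and -0.58 without HDS replicate 2. In whole leaves, fewer cells of a type and less RNA per cell cannot be told apart.

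**Figure D1:**
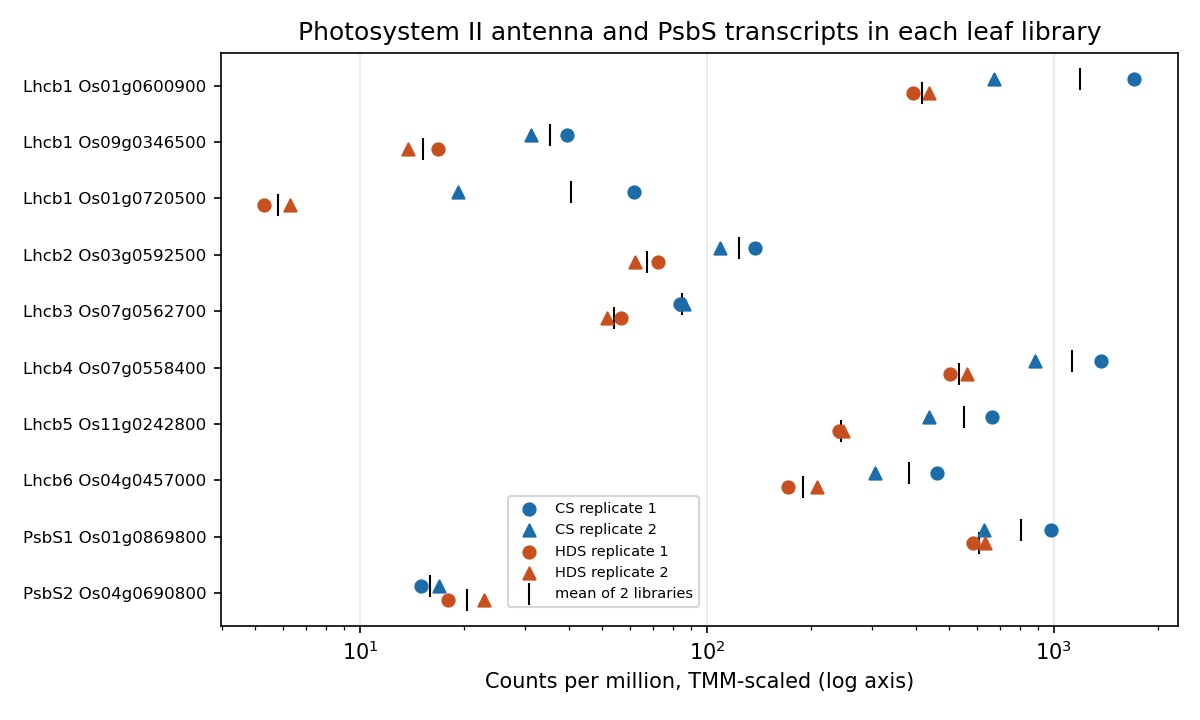
TMM-scaled CPM (horizontal log axis) of each member in the 2 CS and 2 HDS libraries, with a bar at the mean of each treatment. All 8 antenna genes have both HDS libraries below both CS libraries, PsbS1 overlaps, and CS replicate 1 lies far above CS replicate 2 for Os01g0600900 (1703 against 671 CPM). Levels of different genes are not corrected for length.

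Lhcb1 proteins make up much of the major trimers. Os01g0600900, on chromosome 1, was at 1703 and 671 CPM in CS leaves, against 394 and 438 CPM in HDS leaves. CS replicate 1 was the highest by far, and the treatments did not overlap. The CS mean was 1187 ± 729 CPM and the HDS mean was 416 ± 31.2 CPM (both SD, n = 2). The log2 fold change was -1.51 (standard error, SE, 0.68), with P = 0.000222 and adjusted P = 0.0127 by edgeR's exact test. Without CS replicate 1 it was -0.69, and omitting CS replicate 2 gave -2.05. The size of the difference thus depended on the CS library, and CS replicate 2 alone was still above both HDS libraries.

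Os01g0720500, also on chromosome 1, showed the largest log2 fold change among the members. It was at 61.8 and 19.1 CPM in CS leaves, against 5.31 and 6.30 CPM in HDS leaves. These levels rest on 903 and 332 counts in CS leaves but on 95 and 106 counts in HDS leaves. Here too CS replicate 1 was well above CS replicate 2, and both HDS libraries lay below both. HDS plants differed from CS plants by a log2 fold change of -2.80 (SE 0.85, adjusted P = 2.96e-05 by edgeR's exact test), a 6.96-fold lower level in HDS plants, and it was -1.73 without CS replicate 1. Its expected counts were whole numbers throughout. Genes that shared reads were searched for only with members whose counts were not whole.

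Os09g0346500, on chromosome 9, was at 39.4 and 31.2 CPM in CS leaves, against 16.8 and 13.7 CPM in HDS leaves. CS replicate 1 was again the highest, by less than for the other copies, and the treatments did not overlap. Its level differed by a log2 fold change of -1.21 (SE 0.22, adjusted P = 8.58e-05 by edgeR's exact test), and it lay between -1.39 and -1.04 when single libraries were omitted. The smallest adjusted quasi-likelihood P of all members belonged to this gene (edgeR, adjusted P = 0.0681).

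The expected counts of Os01g0600900 and Os09g0346500 were not whole, which is how RSEM records a read that fits more than one gene. Together they came to 25464 and 12187 counts for CS plants, and to 7351 and 7607 for HDS plants, which are whole numbers to within 0.01 counts. This pair therefore shared reads with each other, and the division between the copies is an estimate. When the 3 Lhcb1 type genes were summed before the test, which makes the division of reads irrelevant, the log2 fold change was -1.53 (adjusted P = 0.00949 by edgeR's exact test). The sum had an adjusted P of 0.261 in the quasi-likelihood test of edgeR, and without CS replicate 1 the log2 fold change was -0.73.

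Lhcb2, on chromosome 3, encodes the trimer protein whose phosphorylation in Arabidopsis is needed for state transitions, the movement of antenna between photosystems. It was at 138 and 109 CPM in CS leaves, against 72.3 and 62.1 CPM in HDS leaves. The treatments did not overlap, and the replicates of each differed less than the treatments did. HDS plants differed from CS plants by a log2 fold change of -0.88 (SE 0.20, adjusted P = 0.00146 by edgeR's exact test), or a 1.84-fold lower level, and of -0.70 without CS replicate 1.

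Lhcb3, on chromosome 7, encodes a trimer protein that is found close to the minor antenna. It was at 83.7 and 85.7 CPM in CS leaves, against 56.7 and 51.4 CPM in HDS leaves. This was the antenna gene with the smallest difference between treatments and also with the smallest spread between the CS replicates. Its level differed by a log2 fold change of -0.65 (SE 0.07, adjusted P = 0.0144 by edgeR's exact test), and -0.67 without CS replicate 1. Without HDS replicate 2 the log2 fold change of -0.58 no longer met the criteria (P = 0.0547 by edgeR's exact test). Scaled by total counts, its adjusted P was 0.0721 in the exact test of edgeR.

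All 3 minor antenna genes were lower in HDS plants, and all 3 met the criteria of the study. Lhcb4, on chromosome 7, was at 1371 and 881 CPM in CS leaves, against 503 and 561 CPM in HDS leaves. Lhcb5, on chromosome 11, was at 666 and 437 CPM in CS leaves, against 241 and 247 CPM in HDS leaves. Lhcb6, on chromosome 4, was at 461 and 305 CPM in CS leaves, against 172 and 208 CPM in HDS leaves. In each of them CS replicate 1 was the highest library and both HDS libraries were lower than CS replicate 2. The log2 fold changes were -1.08 for Lhcb4 (standard error 0.33), -1.18 for Lhcb5 (standard error 0.30) and -1.01 for Lhcb6 (standard error 0.33). Their adjusted P-values by edgeR's exact test were 0.00184, 0.000161 and 0.00413 in the same order. Without CS replicate 1 the log2 fold changes were smaller, at -0.73, -0.85 and -0.69, and still met the criteria. The counts of Lhcb6 were not whole, and in all 4 libraries they summed to a whole number with those of the neighbouring identifier Os04g0457100, which had between 43.3 and 116 counts.

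**Figure D2:**
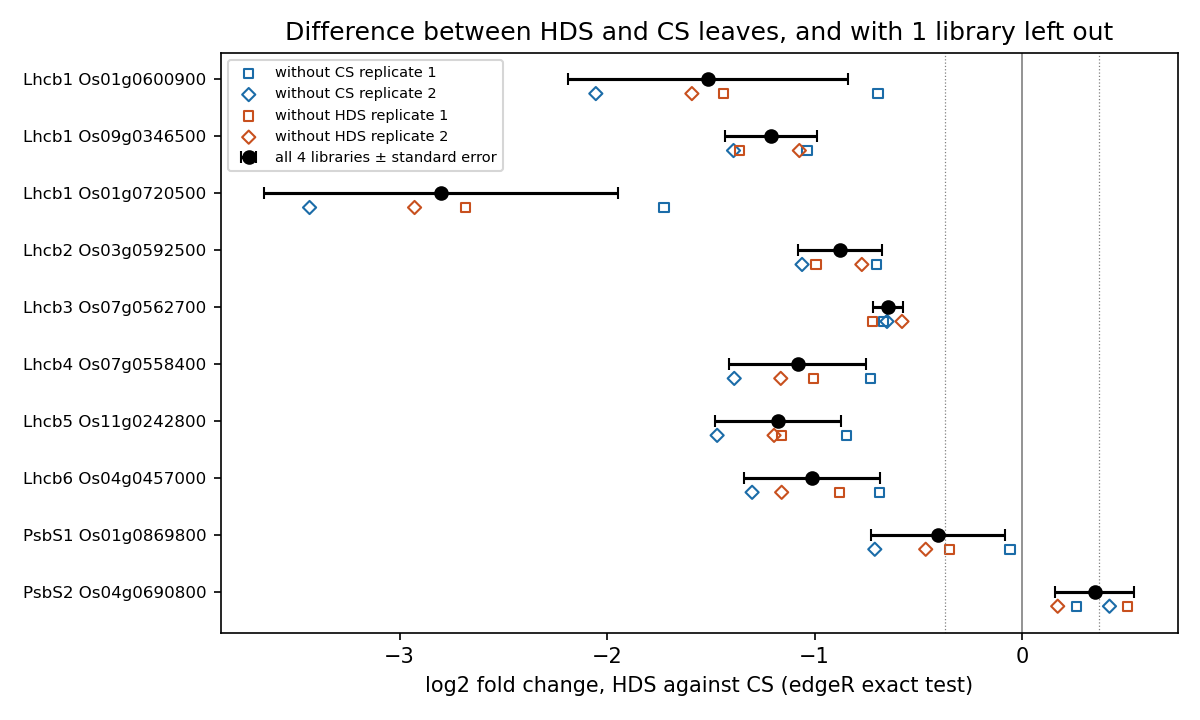
Log2 fold change of HDS against CS plants for each member by edgeR's exact test (black points, bars are standard errors), with the value when 1 library was left out (open symbols) and dotted lines at the limit of 0.37 in either direction. The antenna genes stay below the limit in every case, between -3.43 and -0.58, and PsbS1 moves from -0.71 to -0.06 depending on the CS library left out.

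PsbS1, on chromosome 1, was at 980 and 631 CPM in CS leaves, against 584 and 632 CPM in HDS leaves. CS replicate 2 lay between the HDS libraries, so the treatments overlapped. The CS mean was 806 ± 247 CPM and the HDS mean was 608 ± 34.2 CPM (both SD, n = 2). The log2 fold change was -0.41 (standard error 0.32, P = 0.105 and adjusted P = 0.851 by edgeR's exact test). Omitting CS replicate 1 gave -0.06, whereas omitting CS replicate 2 gave -0.71, which met the criteria (P = 2.67e-05 by edgeR's exact test). That P rests on the spread of the HDS libraries alone, whose SD was 34.2 CPM. The level of PsbS1 in HDS plants relative to CS plants thus depended on which CS library was used.

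PsbS2, on chromosome 4, was at 15.0 and 16.9 CPM in CS leaves, against 18.0 and 22.7 CPM in HDS leaves. This was the only member with both HDS values above both CS values, as seen for 21.2% of the genes kept by the filter. The log2 fold change was 0.35 (standard error 0.19, P = 0.162 and adjusted P = 0.967 by edgeR's exact test), and it lay between 0.17 and 0.51 when single libraries were omitted. Within a library, the log2 ratio of PsbS1 to PsbS2 differed by -0.71 between HDS and CS plants, and by -0.31 without CS replicate 1. The treatments did not overlap in this ratio, and the standard error of the difference was 0.42. The two-sided exact permutation test gave P = 0.333, the smallest that 2 libraries against 2 can give, so it could not decide the question. The share of all genes with such a difference from PsbS1 without overlap was not computed.

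The ratio of 2 genes within a library does not depend on how libraries are scaled against each other, and the ratios of the members to PsbS1 and to Lhcb4 were computed after the levels had been seen. On the log2 scale, the count of Lhcb4 relative to that of PsbS1 was 0.48 in both CS libraries but -0.22 and -0.17 in HDS leaves. The difference in this ratio was -0.68 (standard error 0.02). CS replicate 1, in which both genes were high, thus had nearly the same ratio as CS replicate 2. The same was seen for the other minor antenna genes, and for Lhcb5 the log2 ratios to PsbS1 were -0.56 and -0.53 in CS leaves against -1.28 and -1.36 in HDS leaves. For Lhcb6 they were -1.09 and -1.05 in CS leaves against -1.77 and -1.60 in HDS leaves. The CS ratios lay further apart for Os01g0600900, at 0.80 and 0.09, against -0.57 and -0.53 in HDS leaves (standard error 0.35). For Os01g0720500 they were -3.99 and -5.04 in CS leaves against -6.78 and -6.65 in HDS leaves (standard error 0.53). Of the 8 antenna genes, 7 had both HDS ratios to PsbS1 below both CS ratios, as had 4.38% of the genes kept by the filter. The exception was Lhcb3, whose ratios were -3.55 and -2.88 in CS leaves against -3.36 and -3.62 in HDS leaves. The smallest two-sided exact permutation P for any such ratio is 0.333 with 2 libraries per treatment.

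**Figure D3:**
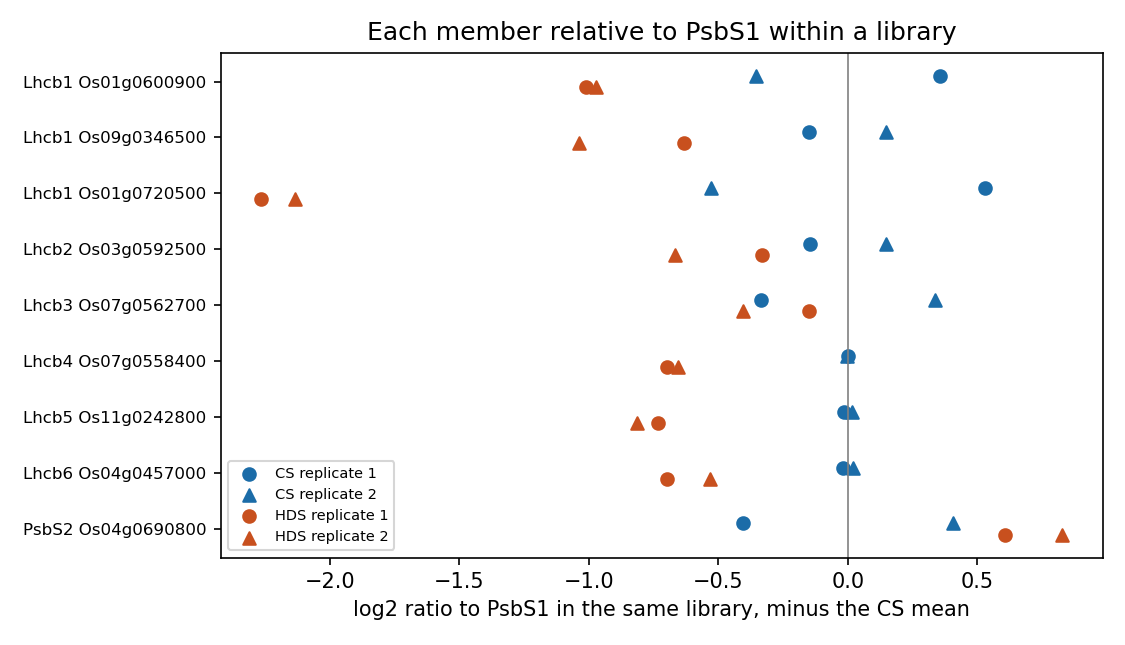
Log2 ratio of the counts of each other member to those of PsbS1 within the same library, minus the mean of the 2 CS libraries (horizontal axis), with a symbol for each library. Lhcb4, Lhcb5 and Lhcb6 have nearly equal CS ratios and are lower in both HDS libraries, by -0.68, -0.77 and -0.62 on average, whereas the CS and HDS ratios of Lhcb3 overlap.

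Relative to Lhcb4, the other minor antenna genes differed between treatments by at most 0.10 on the log2 scale. The log2 ratio of Lhcb5 to Lhcb4 was -1.04 and -1.01 in CS leaves, against -1.06 and -1.18 in HDS leaves, without overlap. The difference was -0.10 (SE 0.06). The log2 ratio of Lhcb6 to Lhcb4 lay between -1.57 and -1.43 and overlapped between treatments. By contrast, the log2 ratio of Os01g0600900 to Lhcb4 was 0.31 in CS replicate 1 and between -0.39 and -0.35 in the other 3 libraries. For Os01g0720500 it was -4.47 and -5.52 in CS leaves against -6.57 and -6.48 in HDS leaves, without overlap. The ratios of Lhcb2, Lhcb3 and Os09g0346500 to Lhcb4 overlapped between treatments. The share of all genes without overlap in the ratio to Lhcb4 was not computed. Of all reads of the 8 antenna genes, Os01g0600900 held 37.6% in CS replicate 1 and between 26.4% and 27.6% in the other libraries. The antenna genes together took up 0.428% and 0.256% of all counts in CS leaves, against 0.151% and 0.161% in HDS leaves.

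Lists of further identifiers were fixed for steps around the antenna, and no table used here annotates them. These lists, and those below, were fixed with earlier results of these data known. For protein import into the thylakoid 2 identifiers were listed, for photoprotection and state transitions 4, for chlorophyll b synthesis 1 and for the transcription factors that activate antenna genes 2. None of these 9 met the criteria of the study in either direction in edgeR's exact test, and their log2 fold changes lay between -0.42 and 0.40. Over all genes tested, 3.7% were lower and 4.18% were higher by these criteria, and 0 of 9 is near these shares. This count of 0 was not stable, since 1 of the transcription factors was higher when scaled by total counts or without CS replicate 1, and 2 of the photoprotection list were lower without CS replicate 2. By list, the median log2 fold change was -0.13 for import, -0.15 for photoprotection, -0.14 for chlorophyll b synthesis and 0.27 for the transcription factors, against 0.01 for all genes tested.

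Genes of other lists moved between the same libraries. By the criteria of the study, 3.7% of all genes tested were lower in HDS plants and 4.18% were higher. Of 8 identifiers listed for the circadian clock, 4 were lower and 0 were higher by these criteria, with a median log2 fold change of -0.35. The lower ones numbered 3 when scaled by total counts and 2 when either HDS library was omitted, and without CS replicate 2 they numbered 5, with 1 higher. The 2 with the smallest P were Os02g0618200, at 112 and 102 CPM in CS leaves against 49.7 and 54.0 CPM in HDS leaves, and Os09g0532400, at 39.1 and 41.3 CPM in CS leaves against 12.9 and 17.4 CPM in HDS leaves. Their log2 fold changes were -1.05 and -1.41, and both passed edgeR's quasi-likelihood test (adjusted P = 0.0362 and 0.0405). Unlike for most antenna genes, the CS replicates were close to each other for both. The other 2 lower ones, Os03g0284100 and Os01g0182600, had smaller log2 fold changes of -0.46 and -0.38. Neither passed with an adjusted P in edgeR's exact test (adjusted P = 0.300 and 0.544). Os01g0182600 was the most abundant of the list, with means of 2424 CPM in CS leaves and 1862 CPM in HDS leaves.

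Of 3 identifiers listed for leaf ageing, 2 were higher in HDS plants and 0 were lower by the criteria of the study. Over all genes tested, 4.18% were higher and 3.7% were lower. Os03g0327800 was at 14.9 and 11.6 CPM in CS leaves, against 53.3 and 50.8 CPM in HDS leaves, which gave a log2 fold change of 1.97. Os09g0532000 was at 1.85 and 2.36 CPM in CS leaves, against 26.6 and 11.8 CPM in HDS leaves, which gave a log2 fold change of 3.18. Both passed edgeR's quasi-likelihood test (adjusted P = 0.0186 and 0.0456). The remaining gene of this list, Os01g0227100, was the most abundant and went the other way without meeting the criteria. It was at 457 and 429 CPM in CS leaves, against 384 and 389 CPM in HDS leaves, a log2 fold change of -0.20. The list summed to 474 and 443 CPM in CS leaves, against 464 and 452 CPM in HDS leaves. In these lists, as in the leaf list, where 1 of 2 identifiers was lower by the criteria of the study, the part of the listed genes in the lower antenna transcripts was not tested. The hour at which the leaves were taken is not given in the sources used here.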

How the data were processed

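Leaf RNA of 2 CS and 2 HDS plants was sequenced as 150-bp reads from strand-specific libraries, for which the paper and the sample labels name different kits. The authors estimated expected counts per gene with RSEM and the IRGSP-1.0 annotation, and the deposited expected counts were not normalized. Reads that fit several genes are divided among them by RSEM. The submitters' processing notes also name FastQC 0.11.7, Trimmomatic, Bowtie2 and edgeR 3.26.3.

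After rounding of the counts, edgeR 4.0.16 and DESeq2 1.42.0 were run under R 4.3.3. TMM scaling and edgeR's exactTest were applied to 29698 genes with at least 1 count (P under 0.05, log2 fold change no smaller than 0.37 in size). The quasi-likelihood test was applied to 22184 genes kept by filterByExpr, which included all 10 members, with Benjamini-Hochberg adjustment over all genes. Both were tested on simulated data. Standard errors come from the spread of log2 CPM with a prior count of 2. The alternatives were other scaling, filters and tests, a replicate block, and each library left out in turn. All columns and all gene rows were used.

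The members and lists were chosen with earlier results of these data known. The rule named all 10 members and, of each list, up to 5 genes past the criteria and the most abundant gene. As no table pairs the identifiers with names, only the 4 lower clock genes and the 3 leaf ageing genes are printed. Of the 37858 identifiers 1 matched the RefSeq gene table, and it was no member, so levels of different genes were not compared per length. Lists that needed product names (photosystem II core, other antenna genes) were not analysed here.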

Additional observations from a re-analysis of the deposited data

How the results depend on the processing

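With a log2 fold change limit of 1, 6 members were lower, and the share of all genes at that limit was not computed. The count of 8 members lower under the study's criteria was 8 under each other scaling, the other filter, DESeq2 and the adjusted exact test. It ranged from 7 to 9 when 1 library was omitted. The count of 0 members in the adjusted quasi-likelihood test became 4 with a filter of at least 1 count and 7 with DESeq2, and ranged from 0 to 9 when 1 library was omitted. Over all genes, the 155 of this test became 419 and 547 under these settings and ranged from 3 to 2681 when 1 library was omitted. The 2340 genes that met the study's criteria became 707 with adjusted P-values and ranged from 1132 to 5430 likewise. With the replicate number as a block, 6 members and 558 genes passed the adjusted quasi-likelihood test. The listed genes that met the criteria of the study were then 4, of which 2 were lower. The labels do not say what a replicate number shares, and deviations of same-numbered libraries were uncorrelated across the genes kept by the filter (r = 0.004). Across the 10 members r was -0.32. Of the 20 further listed genes, 6 met the study's criteria, between 4 and 10 of them when 1 library was omitted, and with total counts the split was 3 lower and 3 higher in place of 4 and 2. The log2 fold change of the summed Lhcb1 type genes lay between -2.07 and -0.73, and the difference in the ratio of PsbS1 to PsbS2 between -1.12 and -0.31 when 1 library was omitted. The cause of these changes was not tested. With 2 libraries per treatment, the spread within a treatment rests on the difference between its 2 libraries.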

Other observations

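The reads of Lhcb6 were divided with the neighbouring identifier Os04g0457100. That gene was given 50.2 and 116 expected counts from CS leaves, against 43.3 and 48.5 from HDS leaves. Added to Lhcb6, the sums were 6789 and 5405 counts for CS, and 3113 and 3553 counts for HDS. These values were noticed after the counts had been seen.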
